A study of Mus musculus with 4 samples.

Results

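Interferon-stimulated genes were examined in splenocyte RNA of DBA/1 mice whose mothers had received benzyl butyl phthalate (BBP), a plasticizer. The 33 genes are a set of known interferon targets taken by symbol, with earlier results of these data known. A transcript cluster carrying a single gene symbol was found for 31 of them, out of 30738 symbols on the array. Of these 31 genes, 20 reached a signal of 100 or more in at least 2 of the 4 arrays and are called measured, among 10716 measured genes in all. The study asked whether exposure around birth alters splenic gene expression before arthritis is induced. Offspring were 3 weeks old, and dams drank water with 3 µg/ml BBP, or plain water as controls, over a period that began 1 week before mating and ended at weaning. Splenocyte RNA was pooled by sex and maternal exposure, with 6 females and 4 males behind the BBP arrays and 12 females and 4 males behind the control arrays, and each pool was read on 1 Clariom D array. All animals were DBA/1 with no genetic alteration labelled, and none had been immunized.

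Each group was therefore 1 array, and no spread between animals could be measured. The litters behind each pool were not given, so litter and exposure cannot be told apart. In a pool of mixed splenocytes, fewer cells of a type and less RNA per cell cannot be told apart either. The values are linear MAS 5.0 signals, and a signal of 1 gene is set here only against the same gene in another pool, as probes of different genes differ in brightness. Between 34.0% and 34.6% of symbols reached 100 in each array, and the brightest background control feature lay between 49.6 and 79.3. Xist, transcribed from the inactive X chromosome, was at 29.0 in the BBP male and 29.1 in the control male pool, against 79145 in the BBP female and 67277 in the control female pool, and the Y-linked gene Kdm5d showed the opposite order, and both followed the sex labels. Markers of B cells were present at 3519 or more in every pool. The median log2 difference over all measured genes was not 0 but -0.09 between the female pools and -0.15 between the male pools (BBP over control), so the values of single genes are read beside these medians.

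Interferons are cytokines that cells release on sensing viral nucleic acid or, for the type II interferon, on T cell and natural killer cell activation. Type I interferon binds a receptor whose kinases activate STAT2, which joins IRF9 in a complex that binds the interferon-stimulated response element (ISRE) of its targets. Type II interferon, interferon gamma, acts on genes that carry a gamma-activated site (GAS). The target genes encode antiviral effectors, sensors of foreign RNA and DNA, and the transcription factors of the pathway itself, and a low tonic level of interferon keeps some of them expressed in the spleen of uninfected mice.

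Of the 20 measured genes, 17 gave a lower signal with BBP than without it in both sexes, and 51.5% of all measured genes did so. None was higher in both sexes, against 20.1% of all measured genes. Among the 17, Dhx58 reached the limit of 100 only through its control pools and so had to be lower. Without Dhx58 and the other genes that passed through the pools of 1 exposure alone, 16 of 19 were lower in both sexes, against 51.2% of 10443 genes. The median log2 difference of the 20 genes was -0.38 between the female pools and -0.22 between the male pools. Set against the median of all genes in each pair, 10 of the 20 lay below it in both sexes, with a background of 35.1% of all genes, and 0 lay above it in both, with the same background of 35.1%. The 10 genes were Irf7, Ifi27l2a, Stat2, Gbp2, Bst2, Dhx58, Ifih1, Trim30a, Ifi35 and Igtp, and without Dhx58 they were 9 of 19, against 34.6% of genes. The differences were mostly small: 6 genes were at least 1.5-fold lower in BBP females (12.1% of all genes) and 4 in BBP males (13.3% of all genes), while 0 were 1.5-fold higher in BBP females (4.14% of all genes) or in BBP males (4.54%). Ifi27l2a and Bst2 were at least 1.5-fold lower in both sexes, so 2 of 20 against 4.43% of all genes. The 6 genes in females, which were 5 without Dhx58, and the 4 in males shared this pair. Of all genes, 1294 were at least 1.5-fold lower in BBP females and 1427 in BBP males, and 475 were so in both.

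At the 2-fold limit that the study used, 1 of the 20 genes, Ifi27l2a, was lower in BBP pools of both sexes (0.541% of all measured genes) and 0 were higher (1.2% of all measured genes). With 50 added to each signal, 0 of the 20 reached 2-fold in both sexes. In limma, fitted to all 10716 genes with exposure and sex as terms and Benjamini-Hochberg adjustment at 0.05, 1 of the 20 genes fell with exposure, again Ifi27l2a (1.19% of all genes fell), and 0 rose (1.44% of all genes rose). At an unadjusted p under 0.05 in limma, 6 of the 20 were lower and 0 higher. Of all 10716 genes, 2257 were lower and 646 higher at that limit, so the unadjusted counts are not read as a result about the 20. After quantile normalization, with no signal filter or with a limit of 200, limma called 0 genes of the whole array, so no limma call given here held in those settings. Only 1 degree of freedom was left for error, namely how far the sexes disagreed about exposure, and the p-values do not measure the spread between animals.

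**Figure D1:**
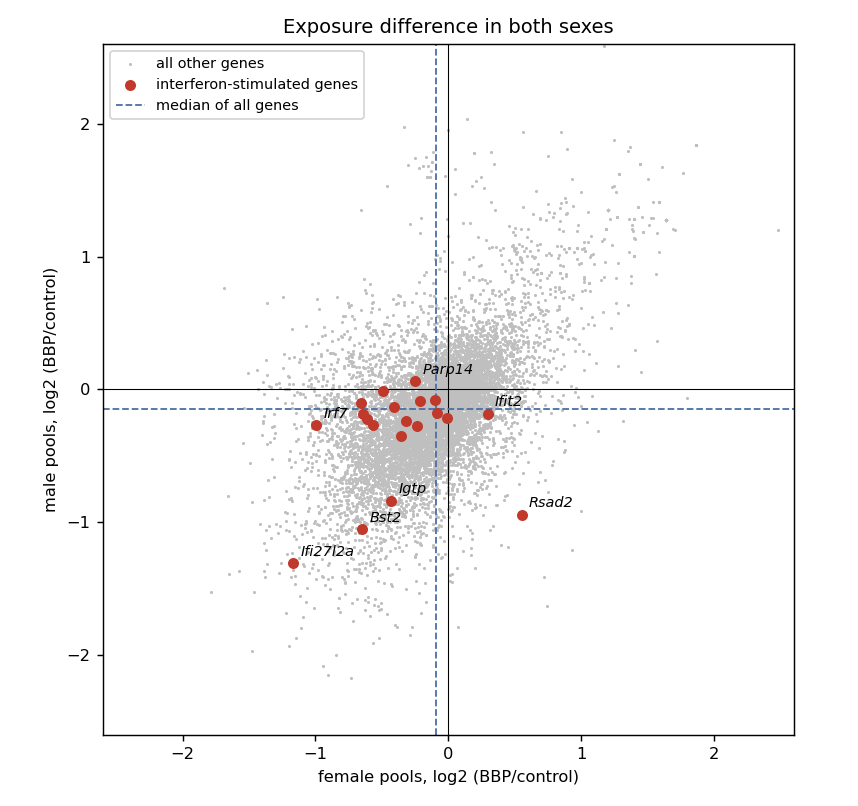
Log2 of BBP over control signal in the female pools (x axis) and the male pools (y axis), 1 point per measured gene, with the 20 interferon-stimulated genes in red and the medians of all genes (-0.09 and -0.15) as dashed lines. Red points lie mostly at the lower left, with Ifi27l2a the lowest of them on both axes and with Ifit2 and Rsad2 at the lower right, Rsad2 farthest out at 0.55 in females and -0.94 in males.

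The choice of genes did not use promoter sequence itself. The genes are known interferon targets, however, so a high share with an ISRE was likely from the start and says nothing about exposure. RefSeq promoter windows (build GRCm38.p6, 250 bases before to 50 bases after the annotated start, from C57BL/6J and not DBA/1) were listed for 24 of the 33 genes, as 28 windows. The core of the ISRE was searched as GAAANNGAAA on either strand, so TTTCNNTTTC where it lies on the strand opposite to the gene, and the GAS as TTCNNNGAA, which reads the same on both strands. The ISRE core stood in 16 of the 28 windows (57.1%) of 15 genes, against 3.44% of 32851 windows in the whole table and 3.39% of windows of measured genes. On the strand of the gene alone it stood in 7 windows (against 1.74% of all windows). The GAS stood in 5 windows (17.9%, against 8.3%). A match describes these letters and does not show that a factor binds there.

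The bases just before the start are shown for 7 genes that differ in how the core is arranged and in their signals, 160 bases each, 5′ to 3′ on the strand of the gene, with ISRE cores in capitals and the last letter next to the start. They lie at chr8:71537473-71537632 (- strand) for Bst2, chr12:26456453-26456612 (- strand) for Rsad2, chr11:58199396-58199555 (+ strand) for Igtp, chr11:48871421-48871580 (- strand) for Irgm1, chr3:142620503-142620662 (+ strand) for Gbp2, chr7:104465194-104465353 (- strand) for 1 of the 2 Trim30a windows, and chr4:156200819-156200978 (- strand) for Isg15.
Bst2: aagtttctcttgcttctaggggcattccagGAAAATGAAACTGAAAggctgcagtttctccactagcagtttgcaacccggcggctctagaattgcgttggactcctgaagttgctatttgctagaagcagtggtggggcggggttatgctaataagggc
Rsad2: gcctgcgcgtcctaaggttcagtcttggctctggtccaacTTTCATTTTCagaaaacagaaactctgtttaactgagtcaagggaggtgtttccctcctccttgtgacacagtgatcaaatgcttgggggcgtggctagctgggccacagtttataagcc
Igtp: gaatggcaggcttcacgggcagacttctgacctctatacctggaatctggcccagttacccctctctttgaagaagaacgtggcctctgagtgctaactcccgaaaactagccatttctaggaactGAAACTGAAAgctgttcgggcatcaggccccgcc
Irgm1: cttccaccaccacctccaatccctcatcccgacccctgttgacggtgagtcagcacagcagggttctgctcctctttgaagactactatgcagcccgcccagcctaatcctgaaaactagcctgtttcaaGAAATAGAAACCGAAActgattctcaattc
Gbp2: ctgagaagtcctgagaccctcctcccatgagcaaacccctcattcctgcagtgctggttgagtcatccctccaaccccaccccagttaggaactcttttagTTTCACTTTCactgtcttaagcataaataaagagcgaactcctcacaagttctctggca
Trim30a: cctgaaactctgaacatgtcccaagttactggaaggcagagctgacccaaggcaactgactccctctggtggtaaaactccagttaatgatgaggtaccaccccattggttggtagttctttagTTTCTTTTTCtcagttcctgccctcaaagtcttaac
Isg15: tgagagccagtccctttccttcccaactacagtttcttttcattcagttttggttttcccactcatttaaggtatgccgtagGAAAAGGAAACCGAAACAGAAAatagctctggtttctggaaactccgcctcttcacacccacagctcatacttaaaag
In Bst2 and Irgm1, 2 cores overlap by sharing a GAAA block, and in Isg15 a run of 3 cores does so. The first base of the first core lies 130 bases before the start in Bst2, 30 in Irgm1 and 78 in Isg15. The Bst2 window also holds a GAS, at 136 bases before the start, which overlaps the first core, and the Igtp window holds a GAS at 45 bases, beside the core that begins at 34 bases. In Rsad2, Gbp2 and Trim30a the core lies on the opposite strand, with its first base at 120, 59 and 36 bases before the start.

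**Figure D2:**
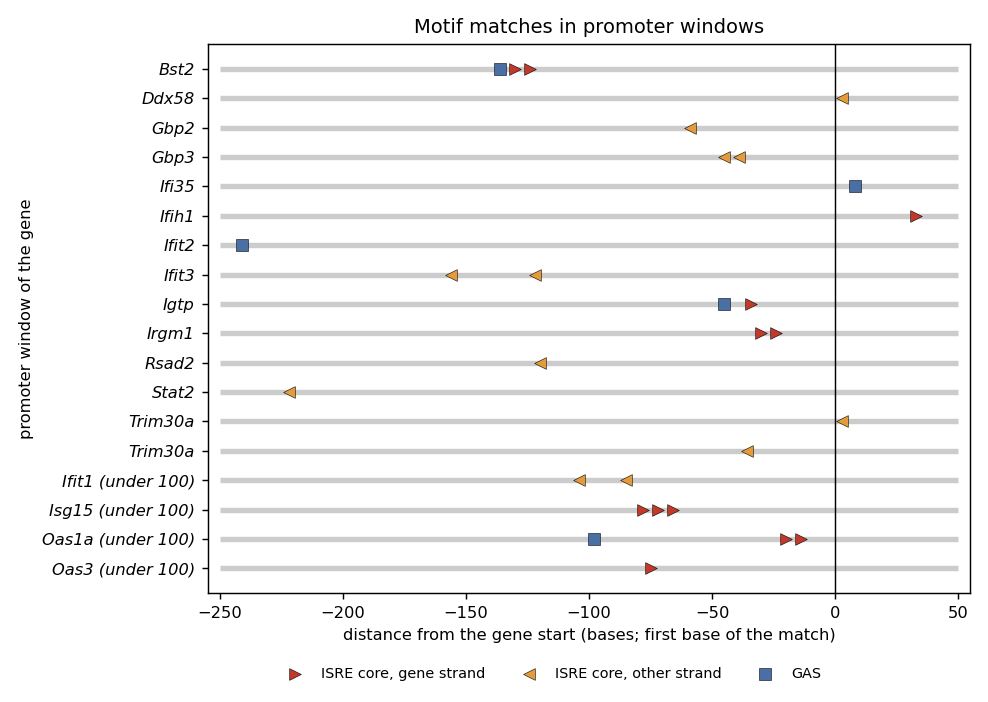
Position of each ISRE core and GAS match in the promoter windows that hold one, as distance in bases from the gene start (x axis, first base of the match); grey bars are the windows and arrowheads point along the strand of the core. Most cores lie within 130 bases before the start, and 3 lie after it, in Ddx58, Ifih1 and 1 window of Trim30a.

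The exposure differences were also set out by presence of the core. The 11 measured genes with a core had a median log2 difference of -0.32 in females and -0.24 in males, and the 5 with a window but no core (Ifi35, Ifit2, Irf7, Irf9 and Xaf1) had -0.49 and -0.18. The 4 measured genes without a listed window, Ifi27l2a, Zbp1, Dhx58 and Parp14, had -0.45 and -0.14. The ranges of all 3 sets overlapped in both sexes. Sets of 11, 5 and 4 genes with wide ranges cannot show whether the core matters, and this was not tested.

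The 3 transcription factors in the set, Irf7, Irf9 and Stat2, were lower in the BBP pool of both sexes, as were 51.5% of all measured genes. This did not hold for every factor of the pathway. Of 6 other measured IRF genes, 4 were lower and 1, Irf4, was higher in both sexes, and Stat3 was higher in both. Irf7, which amplifies type I interferon production, had 178 in BBP females and 244 in BBP males, against 355 in control females and 294 in control males. Both BBP pools lay below both control pools. The log2 difference was -0.996 in females and -0.27 in males, and limma gave -0.63 (SE 0.20, adjusted p = 0.14). Irf9, a DNA-binding partner of STAT2, had 307 in BBP females and 370.0 in BBP males, against 485 in control females and 398 in control males. The difference of -0.66 in females was the larger, and in males it was -0.11, above the -0.15 of all genes (limma adjusted p = 0.23). Stat2 had 1557 in BBP females and 1351 in BBP males, against 1834 in control females and 1638 in control males, differences of -0.24 and -0.28 (limma adjusted p = 0.27).

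The 4 sensors of nucleic acid were each lower in the BBP pool of both sexes, although after median scaling, which sets the median signal of the arrays equal, the mean difference of Ddx58 turned to 0.0521. Ddx58, which encodes the RNA sensor RIG-I, had 856 in BBP females and 768 in BBP males, against 917 in control females and 812 in control males. Zbp1, a sensor of Z-form nucleic acid that can start necroptosis, had 300.5 in BBP females and 284 in BBP males, against 348 in control females and 302 in control males. The log2 differences of this pair were -0.10 and -0.08 for Ddx58 and -0.21 and -0.09 for Zbp1, close to the medians of all genes. Ifih1, the long double-stranded RNA sensor MDA5, had 98.6 in BBP females and 111.5 in BBP males, against 123 in control females and 132 in control males. Dhx58, which encodes the RIG-I-like regulator LGP2, had 72.9 in BBP females and 99.6 in BBP males, against 114 in control females and 113 in control males. Dhx58 was measured only through its control pools and so had to be lower with BBP, with log2 differences of -0.64 in females and -0.19 in males, and its signals lay near the background features. No sensor passed limma (adjusted p between 0.22 for Dhx58 and 0.67 for Ddx58).

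Among the interferon-inducible GTPases, which attack the vacuoles of intracellular microbes, the 4 measured genes were lower in the BBP pool of both sexes, although after median scaling the mean difference of Gbp3 turned to 0.0261. Igtp, an immunity-related GTPase also called Irgm3, had 1130.1 in BBP females and 844 in BBP males, against 1524 in control females and 1508 in control males. The control pools were nearly equal, and the BBP pools differed from each other, with -0.43 in females and -0.84 in males (limma -0.63, SE 0.16, adjusted p = 0.0945). Irgm1, a regulator of that family, had 480.0 in BBP females and 511.5 in BBP males, against 636.5 in control females and 559 in control males. Gbp2, a guanylate-binding protein, had 208.5 in BBP females and 198 in BBP males, against 309 in control females and 238 in control males. Both were more distant between the female than between the male pools, with -0.41 and -0.13 for Irgm1 and -0.57 and -0.27 for Gbp2, and the limma adjusted p was 0.26 and 0.14. Gbp3 had 149.9 in BBP females and 137 in BBP males, against 151 in control females and 159.5 in control males, a difference of -0.01 in females and -0.22 in males. The cluster of Ifi47, another GTPase of this group, is also annotated to the olfactory receptor Olfr56, read 34.4 to 43.0 in the 4 pools and was left out of the counts.

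**Figure D3:**
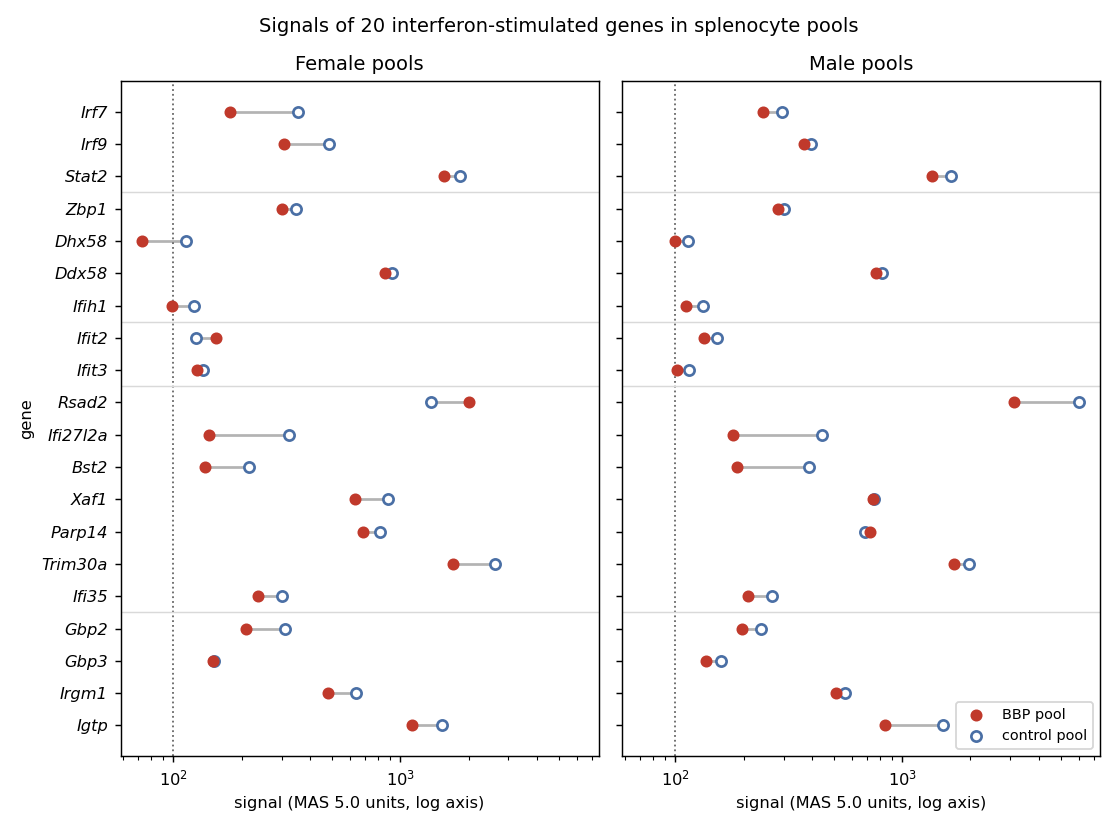
Signal of the 20 measured genes in female pools (left panel) and male pools (right panel) on a log axis, filled red for BBP and open blue for control, with 1 array per point; grey rules part the roles and the dotted line marks 100. In both panels most red points lie left of their blue partner, and Ifit2 and Rsad2 in females and Parp14 in males lie to its right.

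The largest mean differences among the 20 genes were those of 2 effectors, Ifi27l2a and Bst2. Ifi27l2a, a small interferon-induced membrane protein gene, had 143 in BBP females and 179.8 in BBP males, against 322 in control females and 445 in control males. Both BBP pools were below both control pools, 2.26-fold in females and 2.47-fold in males. In limma it fell by 1.24 on the log2 scale (SE 0.12, adjusted p = 0.032), and 0.812% of all genes had a lower value in females and 1.05% in males. The limma call was lost after quantile normalization, with no filter, with a limit of 200 and without the sex term, with adjusted p between 0.0311 and 0.572 over all alternatives. Leaving out a pool also took away the sex term, since the arrays left give no degree of freedom to a fit with it, so the loss of the call there cannot be put down to any 1 pool. Bst2, which encodes tetherin, the membrane protein that holds budding virions to the cell, had 137 in BBP females and 188 in BBP males, against 215.5 in control females and 389.9 in control males. Both BBP pools again lay below both control pools, with log2 differences of -0.65 in females and -1.05 in males, but Bst2 missed the limma threshold (-0.85, SE 0.15, adjusted p = 0.0619). Its promoter holds the overlapping cores shown above.

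Rsad2 differed in sign between the sexes. It encodes viperin, a radical SAM enzyme that makes a chain-terminating nucleotide against viral polymerases. It had 2007 in BBP females and 3125 in BBP males, against 1369 in control females and 6009 in control males. The BBP pools lay between the control pools, higher than control by 1.47-fold in females but lower by 1.92-fold in males, and limma on exposure gave -0.20 (SE 0.37, adjusted p = 0.77). The same order of the 4 pools, control male above BBP male above BBP female above control female, was shown by 209 of 10716 genes (1.95%), and 28 of them (0.261%) also had at least 2-fold more signal in control males than in control females. The 2 differences lay 1.5 apart on the log2 scale (female minus male), and 12 genes (0.112%), Rsad2 included, had opposite signs in the sexes with a gap at least as large in the same direction, which could not be tested with 1 array a group. Among 10 erythroid markers only 1, Alas2, the first enzyme of heme synthesis in red cell precursors, showed that order too, with 29442 in BBP females and 35989.8 in BBP males, against 17096 in control females and 53454 in control males. Ube2l6, the enzyme that passes ISG15 to its targets, showed it as well, with 728 in BBP females and 1169.7 in BBP males, against 517 in control females and 1332 in control males. The other 9 erythroid markers did not follow this order, and Alas2 and Ube2l6 were picked after their values were seen. The part of red cell precursors in the Rsad2 values was not tested.

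**Figure D4:**
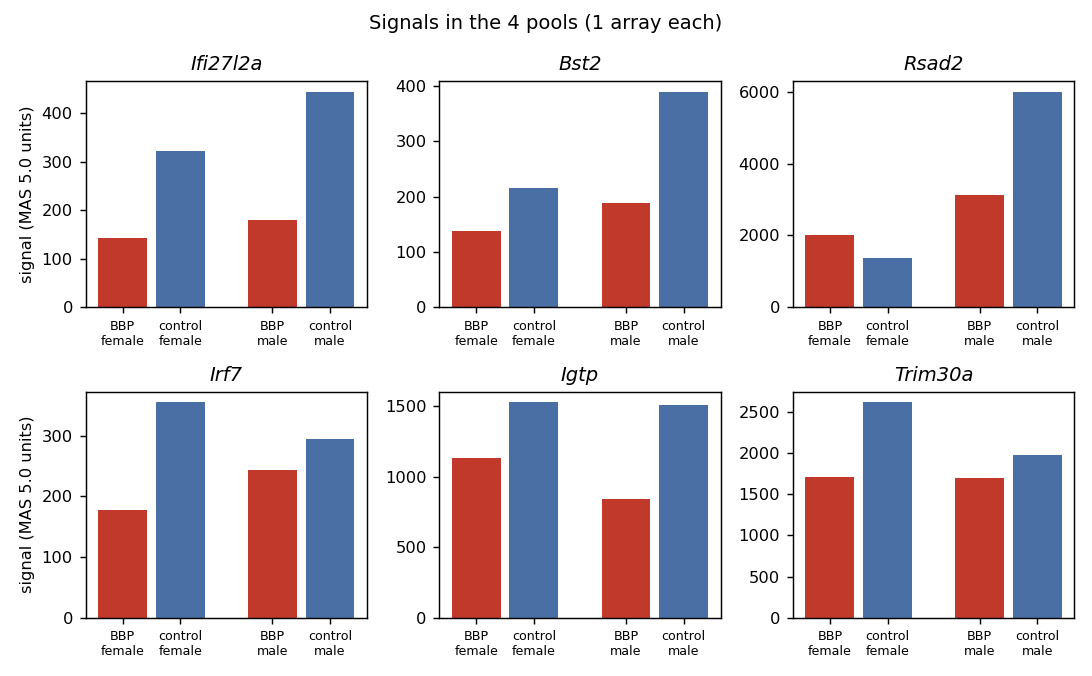
Signals of 6 genes in the 4 pools (bars from 0, 1 array each, red for BBP and blue for control), picked for the size of their differences. Ifi27l2a, Bst2, Irf7, Igtp and Trim30a are lower with BBP in both sexes, and Rsad2 is higher in the BBP female pool and lower in the BBP male pool.

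The other 4 measured effectors and both IFIT genes did not pass limma. Trim30a, a restraint on Toll-like receptor signaling, had 1705 in BBP females and 1693 in BBP males, against 2612 in control females and 1972 in control males. The BBP pools were nearly equal, and the difference was -0.62 in females and -0.22 in males (limma adjusted p = 0.19). Ifi35, a partner of the interferon-induced protein Nmi, had 236 in BBP females and 209.9 in BBP males, against 301.5 in control females and 267 in control males. It was nearly the same in both sexes, at -0.36 and -0.35 (limma adjusted p = 0.14). Xaf1, which counters the apoptosis inhibitor XIAP, had 628.5 in BBP females and 748 in BBP males, against 883 in control females and 752 in control males, so that the difference lay in females (-0.49) and was -0.01 in males. Parp14, an ADP-ribosyltransferase, had 687 in BBP females and 719 in BBP males, against 815 in control females and 689 in control males, which is -0.25 and 0.06. Of the IFIT genes, whose proteins bind viral RNA, Ifit2 had 154 in BBP females and 134 in BBP males, against 125.5 in control females and 152.5 in control males, with opposite signs of 0.30 and -0.18. The BBP and control pools of Ifit2 overlapped, as did those of Parp14. Ifit3 had 127 in BBP females and 102 in BBP males, against 135 in control females and 115 in control males, which is -0.08 and -0.17. Neither IFIT gene nor Xaf1 nor Parp14 passed limma (adjusted p between 0.38 for Xaf1 and 0.86 for Ifit2).

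Several classical antiviral genes stayed under the limit, while Rsad2, Bst2, Ifit2 and Ifit3 were measured. The 11 genes with a cluster that did not reach 100 in 2 arrays were Isg15, Usp18, Ifit1, Mx1, Mx2, Oas1a, Oas2, Oas3, Oasl1, Oasl2 and Rtp4, which are among the most strongly induced genes in cells treated with interferon. Their signals ran between 23.3 and 104.6 with a median of 40.45, and 7 of the 11 lay below 50 in all 4 arrays, where the brightest background features lay at 49.6 to 79.3. Usp18, which removes ISG15 from proteins and dampens the type I receptor, came nearest, with 44.3 in BBP females and 62.6 in BBP males, against 98.1 in control females and 104.6 in control males. Isg15, whose promoter holds the 3 cores shown above, had 34.1 in BBP females and 45.2 in BBP males, against 46.1 in control females and 49.8 in control males. In signals this low a difference between pools carries little, and the OAS genes, which make the activators of RNase L, and the Mx GTPases were not measured in this sense. With no limit on signal, 26 of the 31 genes were lower in both sexes and 0 higher, and 28.7% of 30738 genes were lower in both. These 2 sets differ in signal, as 64.5% of the 31 genes but 34.9% of all symbols reached the limit. Among measured genes alone, 51.5% were lower in both. Ifi44 was not analysed here. Nearest to the limit of 100 were Dhx58 just inside and Usp18 just outside it.

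Between the sexes, the genes differed little outside Rsad2. At 2-fold, 0 of the 20 genes were higher in males than in females in the BBP pools (3.81% of all genes), and 1 of 20, Rsad2, was so in the control pools (2.36% of all genes), at a log2 difference of 2.13. In the BBP pools, Rsad2 was 1.56-fold higher in males than in females. The median male over female log2 difference of the 20 genes was 0.03 in BBP pools and -0.17 in control pools, beside -0.05 and 0.02 for all genes. Bst2 was 1.37-fold higher in males than in females in the BBP pools and 1.81-fold in the control pools.

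Upstream of these targets, the log2 differences of the measured receptor and transducer genes lay between -0.28 and 0.30. No interferon gene was measured, with all 19 that had a cluster between 10.6 and 49.7. Of the receptor genes 5 of 6 were measured and 0 passed limma. Ifnar1, a chain of the type I receptor, had log2 differences of 0.22 in females and 0.07 in males, and its partner Ifnar2 -0.02 and -0.13. The chains of the interferon gamma receptor had -0.08 and 0.16 for Ifngr1 and -0.28 and -0.14 for Ifngr2, and Il10rb, which serves type III interferon, had -0.14 and -0.12. Among the transducers, which pass the signal on by phosphorylation, 4 were measured and none passed limma, with 0.17 and 0.01 for Jak1, 0.08 and 0.07 for Jak2, -0.13 and -0.11 for Tyk2, and 0.05 and 0.30 for Stat3. The receptor list had a median of -0.08 in females and one of -0.12 in males, and the transducers 0.07 and 0.04. Both lists lay nearer to 0 than the 20 target genes, but the medians of all genes were -0.09 and -0.15. Above those medians in both sexes lay 3 of 5 receptors and 3 of 4 transducers, against 35.1% of all genes.

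Of 4 measured feedback inhibitors, 6 other IRF genes and 11 genes of the sensing pathway, 0 passed limma. In the sensing pathway 7 of 11 were lower (63.6%) and 3 of 11 higher (27.3%) in both sexes, near the 51.5% and 20.1% of all genes, and the list's medians were -0.12 (females) and -0.11 (males). The largest differences were those of Ikbke, a kinase that activates IRF3 (0.45 and 0.34), Tlr7, the single-stranded RNA receptor (-0.52 and -0.19), and Sting1, the adaptor of cytosolic DNA sensing (-0.29 and -0.31). Of the IRF genes 4 of 6 were lower and 1 higher in both sexes, led by Irf5 (-0.26 and -0.30), Irf8 (-0.36 and -0.14) and Irf3 (-0.11 and -0.25). Of the inhibitors 1 was lower and 1 higher in both sexes, and the largest mean differences were those of the phosphatase Ptpn6 (-0.52 and -0.14), the STAT inhibitor Pias1 (0.45 and -0.02) and the phosphatase Ptpn2 (0.06 and -0.32).

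A longer list of 64 other interferon-induced genes had 48 measured, and its median was -0.28 between female and -0.17 between male pools. Of the 48, 30 were lower (62.5%) and 4 higher (8.33%) in both sexes, against 51.5% and 20.1% of all genes. Below the median of all genes in both sexes lay 20 (41.7%) and above it 8 (16.7%), against 35.1% each way. In limma 2 fell and 0 rose, against 1.19% and 1.44% of all genes. Psmb10, an immunoproteasome subunit, had 1002.6 in BBP females and 1017 in BBP males, against 1936 in control females and 2684 in control males (limma adjusted p = 0.0454). Ifitm2, a membrane protein that blocks viral entry, had 497 in BBP females and 483 in BBP males, against 1132 in control females and 851 in control males (limma adjusted p = 0.0479). In both genes the BBP pools lay below the control pools. Ifitm3, its neighbour in function, had 286 in BBP females and 488 in BBP males, against 749.9 in control females and 575 in control males, and did not pass (limma adjusted p = 0.17). The ISRE core stood in 30 of 75 promoter windows (40.0%) of 59 other interferon-induced genes. That count was not confined to this longer list, as it took in further GBP and IRG genes too.

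Of 7 interferon-induced chemokine genes 2 were measured. Cxcl9, a T cell attractant induced by interferon gamma, had 118 in BBP females and 126 in BBP males, against 287 in control females and 266.5 in control males. It was more than 2-fold lower in both sexes (-1.28 and -1.08) and fell in limma (adjusted p = 0.0386). In the paper, RT-PCR on individual offspring also gave lower Cxcl9 with BBP, but that difference was not significant. Ccl5 had 3316 in BBP females and 2328 in BBP males, against 3236 in control females and 3564 in control males, and did not pass (adjusted p = 0.41). Of the listed GBP and IRG genes outside the 33, 5 were measured, all of them GBP genes and none an IRG gene. These 5 lay above the median of all genes in both sexes (medians 0.03 for females, 0.05 for males), and 0 passed limma. They were led by Gbp9 (0.20 in females and 0.31 in males), Gbp4 (-0.01 and 0.23) and Gbp11 (-0.03 and -0.07). The 4 measured GTPase genes of the 33, which include the IRG genes Irgm1 and Igtp, had medians of -0.42 and -0.25, on the other side of the medians of all genes.

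**Figure D5:**
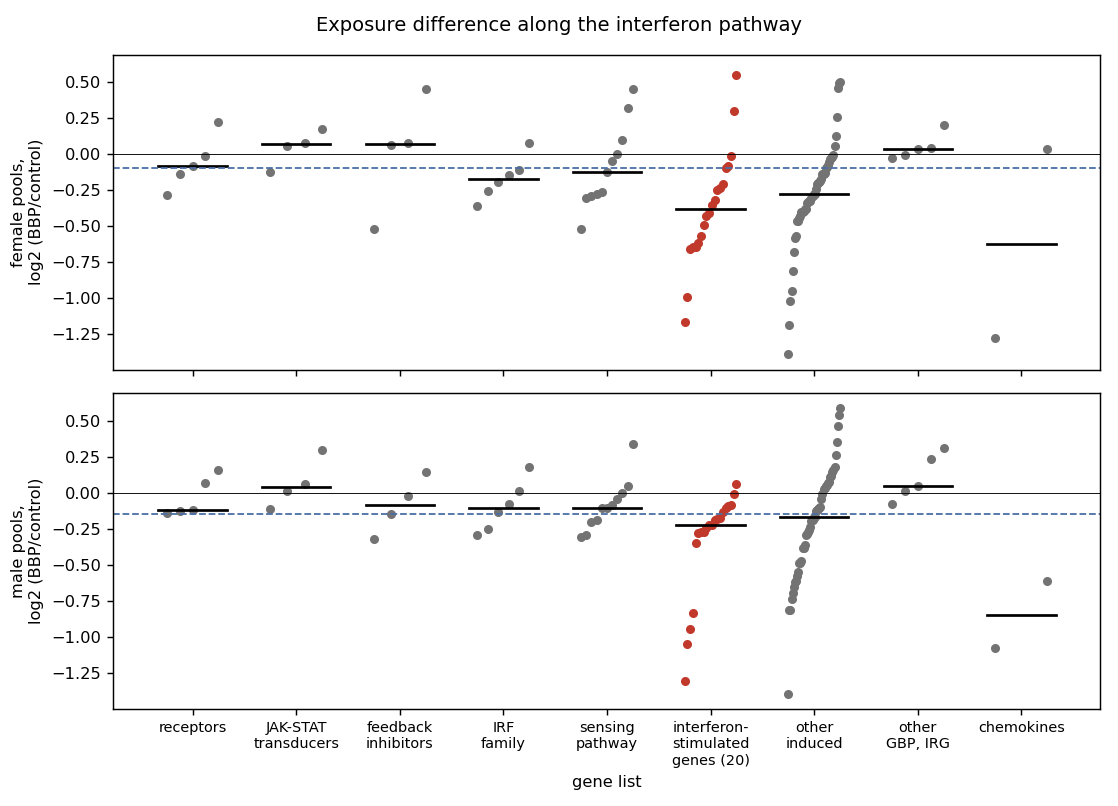
Log2 of BBP over control signal by gene list along the pathway, female pools in the upper and male pools in the lower panel, 1 point per measured gene, with the list median as a black bar and the median of all genes as a dashed line. The receptors and transducers lie near 0, the 20 interferon-stimulated genes (red) have medians of -0.38 and -0.22, and Cxcl9 is the lower point of the chemokines.

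Markers of cell types that make or answer interferon are read against the 51.5% of all genes that were lower and the 20.1% that were higher in both sexes. Summed signals are weighted to the brightest probes of a list. Of 5 measured markers of plasmacytoid dendritic cells, the main source of type I interferon, 2 were lower (Ly6d and Spib) and 1, the surface lectin Siglech, higher in both sexes. Siglech had 1050.7 in BBP females and 1316.5 in BBP males, against 868 in control females and 844 in control males. Ly6d, which B cells also express, had the largest difference of the list, with 25327 in BBP females and 25248 in BBP males, against 36752 in control females and 52621 in control males. Of 6 measured natural killer cell markers 5 were lower and 1 higher in both sexes. Their summed signal was 2143 in BBP females and 2002 in BBP males, against 3580.0 in control females and 3500.3 in control males. Those sums rest largely on Gzma, with 1041 in BBP females and 920 in BBP males, against 2176 in control females and 2166 in control males. Of 7 measured B cell markers 6 were lower in both sexes, with sums of 182255 in BBP females and 182104 in BBP males, against 238739 in control females and 236502 in control males. T cell markers stood on the other side. Of 6 measured T cell markers 4 were higher in both sexes, with sums of 50288 in BBP females and 26441.5 in BBP males, against 30721 in control females and 21007 in control males. The male difference lay mainly in Cd4, with 9583 in BBP and 4616 in control males, while Cd3d and Cd8a were lower in BBP males. Of 8 measured monocyte markers 3 were lower and 0 higher in both sexes, and their median was -0.62 for females but 0.07 for males. Conventional dendritic cell markers had 2 of 5 lower and 3 higher in both sexes, and neutrophil markers 4 of 10 lower and 1 higher. Macrophage markers of the red pulp and marginal zone had 4 of 11 lower and 2 higher, with medians of 0.175 for females and -0.487 for males. Erythroid markers had 8 of 10 lower in both sexes, and 6 of 8 without Gata1 and Klf1, which passed the limit only through the control pools and had to be lower. Their sums were 60461 in BBP females and 58462 in BBP males, against 51325 in control females and 107928 in control males. The female sums rest on Alas2 and Slc4a1, the only 2 of the 10 that were not lower in BBP females, and the median of the list was -0.28 in females and -1.25 in males. None of the measured markers was at 0. The part of any of these cell types in the lower signals of Ifi27l2a, Bst2 or the other genes was not tested.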

How the data were processed

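Splenocyte RNA of 4 pools was measured on Clariom D arrays, 1 array per sex and maternal exposure. The deposited intensity values are linear signals that the authors extracted and scaled between arrays with MAS5, per the methods and the submitters' processing notes; genome build and probe filters: not given in the sources used here. Probe sequences were not analysed here, so near-identical copies of a gene may share signal.

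Of 72688 features, 65956 were transcript clusters. Platform annotation gave 31292 of them 1 symbol, 1522 several and 33142 none listed. Older symbols were updated through a RefSeq table, 30736 of 30738 symbols matched, and the cluster of highest mean stood for each symbol. Genes at 100 or more in at least 2 arrays were kept. Differences are log2 of BBP over control within each sex, with no pseudocount. Exposure was tested with limma 3.58.1 (R 4.3.3; sex as covariate, eBayes with trend, Benjamini-Hochberg, threshold 0.05), tested first on simulated data. Python 3.11.15, numpy 2.4.6, pandas 2.3.3 and matplotlib 3.10.9 did the rest. The members and all gene lists were chosen with earlier results of these data known. Named were every measured member, every measured interferon receptor, transducer and chemokine gene, and from longer lists the 3 genes of largest mean difference. Alas2, Ube2l6, Siglech, Ly6d, Spib, Slc4a1, Gata1, Klf1, Gzma, Cd4, Cd3d, Cd8a and the sex-linked genes were chosen after their values were seen. Alternatives were quantile normalization, median scaling, a pseudocount of 50, no filter or 200, the median over clusters, no sex term, no trend and fits without each pool in turn, which also lacked the sex term; the 1.5-fold counts were added after seeing the data. The number of arrays limits the precision.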

Additional observations from a re-analysis of the deposited data

Results flagged for a closer look

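Of the 20 measured genes, 3 had opposite signs of the exposure difference in the sexes, as had 27.8% of all measured genes. The gap between the sexes (log2 BBP over control in females minus that in males) was 1.5 for Rsad2, 0.48 for Ifit2 and -0.31 for Parp14. With 1 array per group these gaps between the sexes were not tested.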

How the results depend on the processing

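The 20 genes were refitted under 12 alternatives, which gave 235 values of the exposure difference: 216 kept direction and side of the threshold, 8 kept direction and lost the call (all of Ifi27l2a), and 11 in 6 genes changed sign. Counts without genes that passed the limit through the pools of 1 exposure alone were added after seeing the data. Ifi27l2a had an adjusted p of 0.0754 after quantile normalization, 0.0882 with no signal filter, 0.0612 with a limit of 200, 0.214 with no sex term, and 0.298 to 0.572 without 1 pool. The fits without 1 pool also had no sex term, since with it no residual degree of freedom remains, so they changed both choices at once and mix the difference between the sexes into the value. With the sex term kept, such a fit gives the difference of the intact pair of pools, as printed for each gene in females and males. The count of genes that passed limma was thus 0 in each of these settings, the range without 1 pool being 0 to 0. Over all genes, limma called 127 lower and 154 higher as deposited, 29 lower and 160 higher after median scaling, and 0 of either after quantile normalization, with no filter or with a limit of 200. Median scaling moved the medians of the 20 genes to -0.263 in females and -0.0548 in males. Adding 50 to each signal left 0 genes 2-fold lower in both sexes. The count above the median of all genes in both sexes was 1 after quantile normalization, with 50 added or with a limit of 200. With no filter, the median of all genes was 0.0183 in females and 0.0103 in males, and 26 of 31 genes lay below it in both. The share of all 30738 genes below it in both is not given here, so the count of 26 is not read as a result. The 11 genes added there had signals of 23.3 to 104.6, so this count rests partly on signals near the background features. Signs changed for Ifit2 (-0.0117 after quantile normalization), for Ifit3 (0.0121), Gbp3 (0.0261), Ddx58 (0.0521) and Parp14 (0.048) after median scaling, and without 1 pool and the sex term for Ifit2 (range -0.0837 to 0.197, with -0.0428 without the BBP female pool), Ifit3 (-0.286 to 0.0273), Rsad2 (-1.26 without the control female pool to 0.871 without the control male pool, with 0.124 without the BBP female pool) and Parp14 (-0.215 to 0.0273). On the strand of the gene alone, 7 windows held the ISRE core. The pools are paired by sex in the main fit, and the labels number no replicates within a group. The single array per group is the main limit, since the spread between animals, litters and arrays is unknown.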
